A study of Drosophila melanogaster with 4 samples.

Results

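The translation initiation and elongation factors of *Drosophila melanogaster* were examined as the genes whose FlyBase symbol begins with eIF or eEF followed by a digit. The rule used the symbols alone and no measured value. It found 50 of the 13608 genes counted, among them 6 eIF4E genes and *eIF4EHP*, 2 eIF4G genes, 2 eIF4H genes, 16 eIF3 genes, 5 eIF2B genes and 7 elongation factor genes. *eIF5*, the GTPase activator of eIF2, also has such a symbol and was not analysed here. All 4 libraries shared the same condition and were made from head RNA of wild-type adults. According to the paper, this RNA was prepared like the input of its cross-linking protocol. There, head powder was irradiated with UV light, lysed with detergents and centrifuged. The cleared lysate was treated with proteinase K before RNA was purified. The effect of these steps on the levels was not tested. Heads were cut from frozen adults and ground, so that eye, brain, fat body and cuticle were profiled together, and the labels give neither age in days nor sex. The record of the series mentions separate wild-type lines, but the labels of the samples give replicate numbers alone, and no label ties a replicate to a culture or line. The spread between replicates may therefore be partly technical.

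Initiation begins when eIF4E binds the mRNA cap and, through the scaffold eIF4G, brings in the helicase eIF4A. The small ribosomal subunit arrives with eIF3, eIF1, eIF1A and the initiator tRNA held by eIF2, which eIF2B recharges with GTP, and eIF5B then joins the large subunit. During elongation eEF1 delivers aminoacyl-tRNAs and eEF2 moves the ribosome by a codon at a time, and the brain relies on regulation of these steps, for example by phosphorylation of eIF2alpha, for local and activity-dependent protein synthesis.

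Levels are given in CPM, the count of a gene per 1000000 counted on all genes. In this assay, 3′-seq, reverse transcription starts at the poly(A) tail and each read is meant to mark the end of a transcript. The count of a gene is then not expected to grow with its length, and CPM was compared between genes without division by length. The paper removed poly(A) sites likely to come from priming inside transcripts, at stretches rich in A. Whether such reads remain in the gene counts is not given, and their effect was not tested. The counts on genes summed to between 8753359 in replicate 3 and 13434565 in replicate 1. At these depths a count of 0, taken to allow up to 3 counts, allowed 0.223, 0.270, 0.343 and 0.281 CPM in replicates 1 to 4. The markers matched the labelled tissue: the 7 photoreceptor genes summed to between 27791 and 38082 CPM, and the 5 neuronal genes to between 2099 and 2804 CPM. Replicate 1 stood apart by markers of tissues outside the head, which is taken up beside the genes of low level.

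The genes fell into a large expressed set and a small set near 0. Of the 50 genes, 41 (82.0%) reached 10 counts in each of the 4 replicates, against 57.0% of all genes counted. The same number, 41, passed at 1 count or at 1 CPM in every replicate. A total of 27 of the 50 (54.0%) lay in the top 10% of all genes by mean CPM, against 9.99% by construction. The median level of the 41 expressed genes was 155 CPM, and that of the 7754 genes that passed the same minimum was 25.4 CPM. With the 9 low genes included, the median was 119 CPM over the 50 and 7.01 CPM over all 13608 genes.

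**Figure D1:**
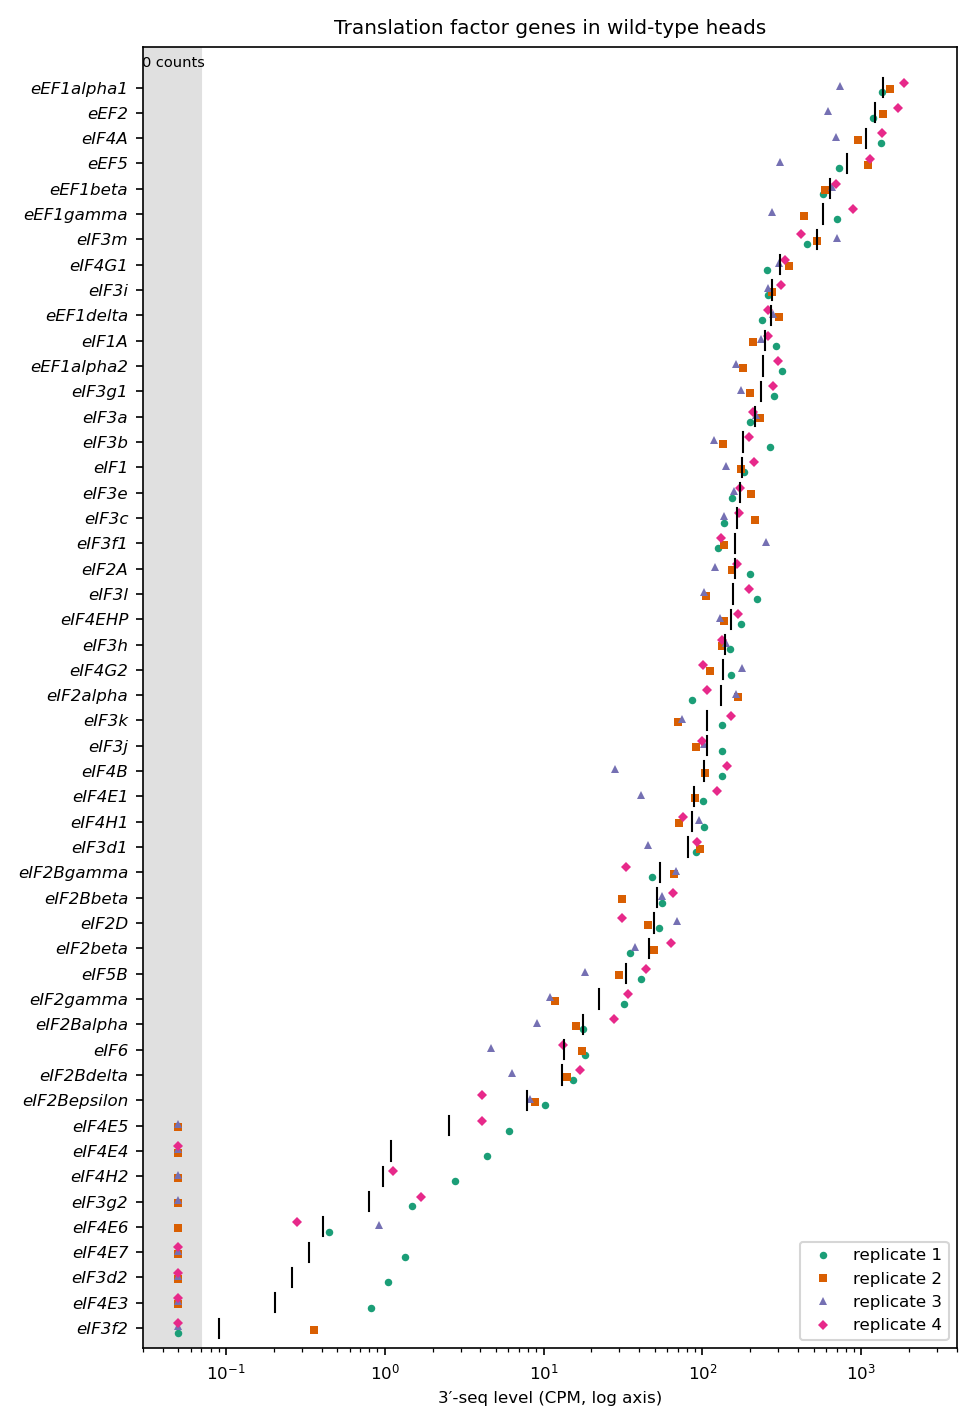
Level of the 50 translation factor genes in CPM (log axis) in each of the 4 replicates of wild-type heads, ordered by mean, with the vertical bar at the mean and the grey band holding replicates at 0 counts. The upper 41 genes run from 1362 CPM for *eEF1alpha1* to 7.84 CPM for *eIF2Bepsilon*, and the lower 9 have replicates at 0 counts. *CG7483* is not shown.

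Together the 50 genes took 1.10%, 1.07%, 0.793% and 1.27% of the counts in replicates 1 to 4, a mean of 1.06% ± 0.199 (SD, n = 4). The share in replicate 3 was the lowest, and its 95% Wilson interval of 0.787% to 0.798% did not reach that of any other replicate. For scale, the 90 cytosolic ribosomal protein genes, whose products make up the ribosome itself, summed to 189190, 218292, 232622 and 219095 CPM, so replicate 3 was the highest there. By role, the elongation factors held 5109 ± 1566 CPM, eIF3 held 2515 ± 80.0 CPM and the cap-binding and mRNA recruitment factors held 1956 ± 394 CPM (SD, n = 4). The start site and initiator tRNA factors followed with 833 ± 50.6 CPM, then eIF2B with 144 ± 5.49 CPM and the pair *eIF5B* and *eIF6* with 46.6 ± 16.7 CPM.

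The elongation factors gave the 2 highest levels of the 50. *eEF1alpha1* (FBgn0284245, chromosome 2R from 11891135 to 11895762 of dm6), the GTPase that carries aminoacyl-tRNA to the ribosome, had 1353, 1506, 735 and 1852 CPM in replicates 1 to 4. *eEF2* (FBgn0000559, chromosome 2L from 21677913 to 21682164), the translocase, had 1192, 1364, 617 and 1689 CPM. Both were lowest in replicate 3 and highest in replicate 4, and *eEF1alpha1* was above *eEF2* in each of the 4. *eEF5*, the *Drosophila* counterpart of eIF5A, a hypusine-carrying factor that helps the ribosome through difficult peptide bonds, had 724, 1108, 308 and 1130 CPM (mean 817 ± 388 CPM, SD, n = 4).

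The subunits of the eEF1 exchange factor, which reloads eEF1alpha with GTP, differed in how steady they were. *eEF1beta* had 572, 595, 658 and 697 CPM, with replicate 3 among the higher values. *eEF1delta*, likewise, had 238, 305, 277 and 260 CPM. *eEF1gamma*, which anchors the exchange subunits, had 701, 435, 275 and 886 CPM, and ran low in replicate 3 as *eEF1alpha1* and *eEF2* did. The ratio of the highest to the lowest subunit mean of eEF1 was 5.04, between *eEF1alpha1* and *eEF1delta*. Within replicates, the ratio of *eEF1alpha1* to *eEF1delta* ran from 2.65 in replicate 3 to 7.12 in replicate 4.

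*eEF1alpha2*, on chromosome 3R from 31738468 to 31743306, is the paralog of *eEF1alpha1*, and the mammalian eEF1A2 is known as the form of neurons and muscle. It had 317, 181, 162 and 297 CPM in heads, or 239 ± 79.3 CPM (SD, n = 4). In replicates 1 to 4, *eEF1alpha1* was 4.27, 8.33, 4.55 and 6.23 times as high as *eEF1alpha2*. The mean log2 ratio of *eEF1alpha2* to *eEF1alpha1* was −2.49 ± 0.45 (SD, n = 4), on the scale of log2 of CPM plus 0.5. Heads hold many cell types, and in such a mixture fewer cells of a type and less RNA per cell cannot be told apart.

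The comparison of paralogs was made within each replicate, so that library size cancels. It covered 13 pairs. The smallest p that an exact sign-flip permutation test over 4 replicates (two-sided) can give is 1 in 8, so no pair could pass 0.05. Every pair had this smallest p, since its 4 replicates pointed the same way. The description below therefore rests on the ratio in each replicate and on its counting interval.

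Among the factors that recruit the mRNA, the helicase *eIF4A* (FBgn0001942, chromosome 2L from 5981764 to 5985909) had the highest level, 1327, 947, 688 and 1345 CPM. *CG7483*, given as eIF4AIII in the RefSeq gene table and known as the helicase of the exon junction complex, carries no eIF symbol in the annotation and was added as a planned comparison. Its 250, 115, 64 and 254 counts put *eIF4A* 71.3, 91.5, 94.2 and 56.5 times above it. *eIF4B*, which stimulates the helicase, had 132, 104, 28.2 and 142 CPM, with replicate 3 well below the others. An annotated end of *eIF4B* overlaps *lncRNA:CR46482* on the same strand, so its counts are less certain. *eIF4H1*, related to eIF4B in function in mammals, had between 71.3 and 102 CPM.

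The scaffold *eIF4G1*, on chromosome 4 from 915297 to 930715, had 253, 353, 304 and 330 CPM (mean 309.8 ± 42.8 CPM, SD, n = 4). Its paralog *eIF4G2*, known in *Drosophila* for its part in male meiosis, was also present in every head replicate, with 152, 112, 176 and 101 CPM. *eIF4G1* was 1.66, 3.15, 1.72 and 3.27 times as high as *eIF4G2*, a mean log2 ratio of *eIF4G2* to *eIF4G1* of −1.22 ± 0.53 (SD, n = 4). The last 300 nt of *eIF4G2* overlap *CG33111* on the same strand and *CG34355* on the opposite strand, so its counts are less certain than those of *eIF4G1*, whose end overlaps no other gene.

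The cap-binding family was carried by a pair of genes. *eIF4E1* (FBgn0015218, chromosome 3L from 9399618 to 9402460), the general cap-binding factor, had 1362, 995, 357 and 1309 counts, or 101, 89.5, 40.8 and 123 CPM. *eIF4EHP* (FBgn0053100, chromosome 3R from 24063077 to 24108960), which binds the cap but not eIF4G and is known for repressing *caudal* and *hunchback* mRNA in the embryo, had 2360, 1526, 1133 and 1779 counts, or 176, 137, 129 and 167 CPM. The repressor was higher in all 4 replicates. *eIF4EHP* overlaps *Syx1A* on the same strand and *CG10694* on the opposite strand, although no other gene lies over the last 300 nt of its annotated transcripts, whereas *eIF4E1* overlaps no other gene.

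The ratio of *eIF4EHP* to *eIF4E1* was 1.73, 1.53, 3.17 and 1.36 in replicates 1 to 4. Its mean on the log2 scale was 0.87 ± 0.54 (SD, n = 4), and leaving out each replicate in turn gave 0.62 to 1.02. In replicate 4, where the ratio was smallest, the 95% Wilson intervals were 159 to 174 CPM for *eIF4EHP* and 116 to 129 CPM for *eIF4E1*, so the order held against counting error. The larger ratio in replicate 3 went with the low value of *eIF4E1* there. Of the counts on the whole family in replicate 1, *eIF4EHP* held 60.6% and *eIF4E1* 35.0%, and in replicate 3 the shares were 75.6% and 23.8%.

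The other 5 eIF4E genes were near or at 0. *eIF4E5*, on chromosome 3L from 7894880 to 7896009, had 81, 0, 0 and 44 counts, and *eIF4E1* was 16.8 times as high in replicate 1 (95% exact Clopper-Pearson interval 13.4 to 21.3) and 29.8 times as high in replicate 4 (22.0 to 41.1). Against the floor of 3 counts per library, *eIF4E1* was at least 332-fold higher than *eIF4E5* in replicate 2 and at least 119-fold higher in replicate 3. *eIF4E4* had 59 counts in replicate 1 and 0 in the others, which put *eIF4E1* 23.1 times above it in replicate 1 (17.8 to 30.5). These were the only eIF4E genes of the 5 that passed 2 CPM in any replicate.

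*eIF4E3*, known to be needed for sperm formation in *Drosophila*, had 11 counts in replicate 1 and 0 elsewhere. *eIF4E1* was 124 times as high in replicate 1 (69.0 to 249), and at least 332-, 119- and 436-fold higher in replicates 2 to 4. *eIF4E7*, on chromosome X from 1158599 to 1162389, had 18 counts in replicate 1 and 0 elsewhere, and *eIF4E1* was 75.7 times as high there (47.7 to 128). *eIF4E6* was the exception to the pattern, with 6, 0, 8 and 3 counts, so that its highest level, 0.914 CPM, was in replicate 3.

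**Figure D2:**
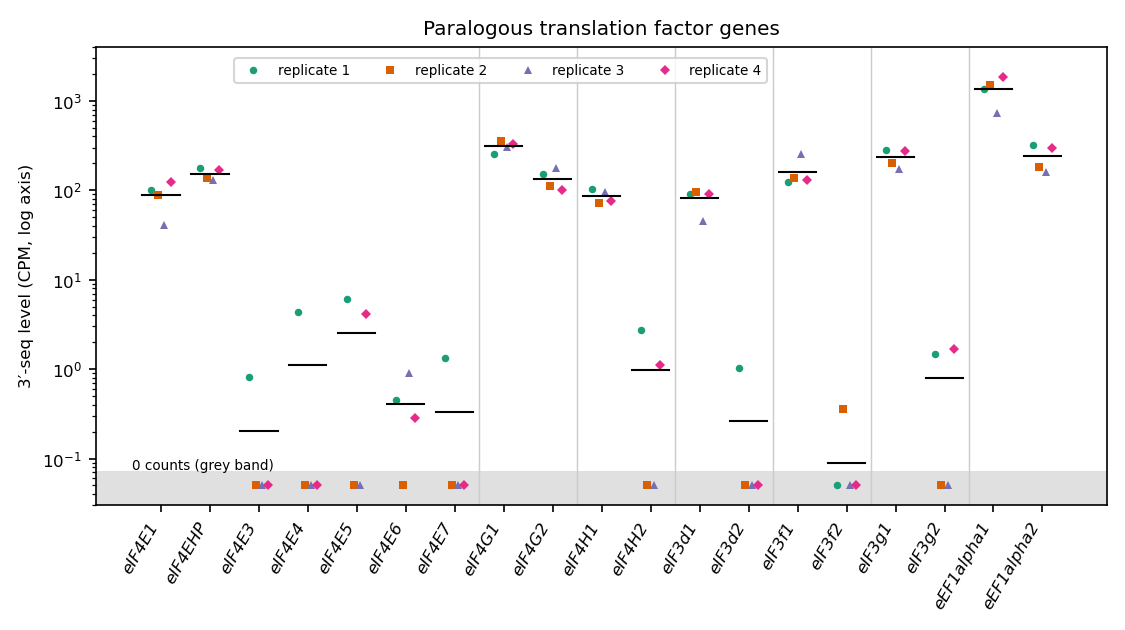
Level in CPM (log axis) of paralogous genes in each replicate, with horizontal bars at the means and the grey band holding replicates at 0 counts. *eIF4EHP* lies above *eIF4E1* in all 4 replicates, the other eIF4E genes stay under 10 CPM, and *eEF1alpha2* lies 4.27 to 8.33 times below *eEF1alpha1*.

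The remaining paralog pairs were split in the same manner as the eIF4E genes. *eIF3d1* and *eIF3d2* encode the eIF3 subunit that in human cells can bind the cap itself. The counts of *eIF3d1* were 1216, 1070, 400 and 980, and those of *eIF3d2* were 14, 0, 0 and 0. *eIF3d1* was 86.9 times as high in replicate 1 (51.6 to 159) and at least 357-, 133- and 327-fold higher in replicates 2 to 4.

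*eIF3f1* and *eIF3f2* encode a subunit with an MPN domain. The counts of *eIF3f1* were 1675, 1520, 2203 and 1405, whereas *eIF3f2* had 4 counts in replicate 2 and 0 in the other replicates, the lowest total of the 50 genes. In replicate 2 the ratio was 380 (148 to 1396), and it was at least 558, 734 and 468 in replicates 1, 3 and 4. *eIF3f2* thus had no counts in replicate 1, where each of the other 8 low genes had some.

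*eIF3g1* and *eIF3g2* encode an RNA-binding subunit. *eIF3g1* had 3803, 2228, 1523 and 2948 counts and *eIF3g2* had 20, 0, 0 and 18, so that *eIF3g1* was 190.2 times as high in replicate 1 (123 to 312) and 164 times as high in replicate 4 (103 to 277). For *eIF4H2* the counts were 37, 0, 0 and 12, and *eIF4H1* was 37.2 times as high in replicate 1 (26.9 to 53.1) and 67.5 times as high in replicate 4 (38.4 to 131). In both pairs the lower paralog had counts in replicates 1 and 4 and none in replicates 2 and 3.

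All 9 genes under the minimum of 10 counts were thus the lower member of a paralog pair or family, while each partner passed it. Their summed level was 18.3, 0.360, 0.914 and 7.21 CPM in replicates 1 to 4. Without replicate 1 its mean fell from 6.70 to 2.83 CPM, a value chosen after seeing the data. For 6 of the 9, leaving out replicate 1 moved the mean by more than 1.5 times: *eIF4E5* went from 2.54 to 1.37 CPM, *eIF4H2* from 0.969 to 0.375 CPM, and *eIF4E4*, *eIF4E7*, *eIF3d2* and *eIF4E3* went to 0. The mean of *eIF3f2* went to 0 without replicate 2, that of *eIF4E6* went from 0.410 to 0.242 CPM without replicate 3 and that of *eIF3g2* from 0.794 to 0.496 CPM without replicate 4. None of the 41 expressed genes moved as far. A total of 4 of the 50 genes (8.0%) had counts in replicate 1 and 0 in the other 3, against 8.21% of all genes, so that share was near the background.

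Sums of markers of male reproductive tissue followed the same order of replicates as the summed level of the low genes. In the latter, replicate 3 over replicate 2 rested on 8 counts of *eIF4E6* against 4 counts of *eIF3f2*. Single low genes did not all follow this order. The 25 testis genes other than *bol* that were found summed to 488, 14.5, 17.3 and 89.4 CPM in replicates 1 to 4. Of these, 22 were highest in replicate 1, 3 passed the minimum of 10 counts, and *aly* and *sa*, which switch on the spermatocyte program, were at 0 in all 4. *bol* itself had 3082, 1283, 1811 and 1593 counts and was left out of this sum after its values were seen. With *bol*, the list of 26 genes summed to 718, 129.8, 224 and 239 CPM.

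The 9 accessory gland genes found summed to 571, 5.75, 11.4 and 171 CPM and were all highest in replicate 1. Midgut markers, 12 genes, also stood out in replicate 1, with 1076, 151, 168 and 215 CPM, whereas the 13 ovary markers found were at 11.4, 20.1, 26.0 and 7.21 CPM. The part of RNA from other tissues in the counts of the low translation factor genes was not tested.

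**Figure D3:**
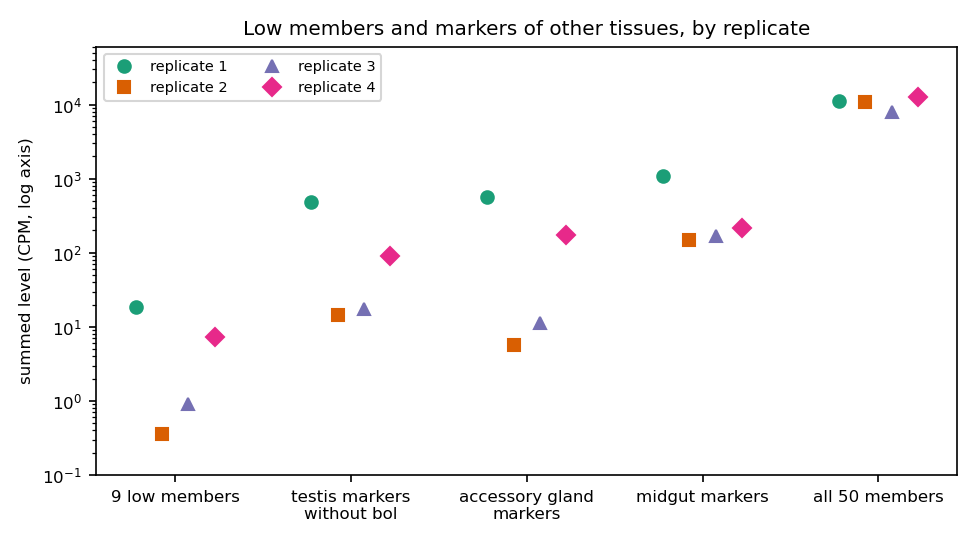
Summed level in CPM (log axis) by replicate of the 9 low translation factor genes, of the testis, accessory gland and midgut marker lists, and of all 50 genes. Replicates 1 and 4 are above replicates 2 and 3 in the low genes (18.3 and 7.21 against 0.360 and 0.914 CPM) and in the marker lists, while the sum over all 50 is lowest in replicate 3.

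Among the factors that place the initiator tRNA, eIF2 was uneven. *eIF2alpha*, the subunit phosphorylated under stress, had 86.1, 168, 162 and 107 CPM. *eIF2beta* had 34.8, 49.5, 37.5 and 63.3 CPM, and *eIF2gamma*, the subunit that binds GTP and the tRNA, had 31.9, 11.9, 11.0 and 34.2 CPM. The order alpha over beta over gamma held in each replicate. In replicate 1 the 95% Wilson intervals of *eIF2beta* (31.8 to 38.1 CPM) and *eIF2gamma* (29.0 to 35.0 CPM) overlapped, so their order there was within counting error.

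The ratio of *eIF2alpha* to *eIF2gamma* was 2.70, 14.2, 14.8 and 3.14 in replicates 1 to 4, and 5.89 between the means. It was smaller in replicates 1 and 4, where *eIF2alpha* was lower and *eIF2gamma* higher. Leaving out each replicate in turn gave 4.62 to 7.67. *eIF2gamma*, on chromosome 3R from 15257844 to 15263458, overlaps *Su(var)3-9* on the same strand, although no other gene lies over its last 300 nt. *eIF2alpha*, on chromosome X from 16445176 to 16446993, shares its end with *rngo* on the opposite strand, and *eIF2beta* shares its end with *ver* on the opposite strand.

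The 5 subunits of eIF2B fell into a higher and a lower set. *eIF2Bgamma* had 47.9, 66.2, 68.3 and 32.8 CPM and *eIF2Bbeta* had 55.8, 31.2, 55.6 and 64.9 CPM. *eIF2Balpha*, the regulatory subunit, had 17.6, 15.9, 9.03 and 27.8 CPM. *eIF2Bdelta* had 15.3, 13.9, 6.28 and 17.0 CPM, and *eIF2Bepsilon*, which holds the catalytic domain, had 10.2, 8.81, 8.23 and 4.12 CPM.

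*eIF2Bepsilon* was thus the lowest of the 41 expressed genes by mean, and the lowest of its complex in 3 of 4 replicates. The ratio of *eIF2Bgamma* to *eIF2Bepsilon* was 6.86 between means, and 4.70, 7.51, 8.31 and 7.95 in replicates 1 to 4. The highest subunit was *eIF2Bbeta* in replicates 1 and 4 and *eIF2Bgamma* in replicates 2 and 3, and *eIF2Bdelta* was the lowest in replicate 3, so that the highest over the lowest was 5.47, 7.51, 10.9 and 15.8. Scaled by library total, the eIF2B sum nevertheless varied little, from 136 to 147 CPM. Sums by complex were not computed with TMM or DESeq2 size factors. All 5 eIF2B genes have a gene on the opposite strand over an annotated end, and without a known strand setting their counts and those of the partners cannot be told apart.

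**Figure D4:**
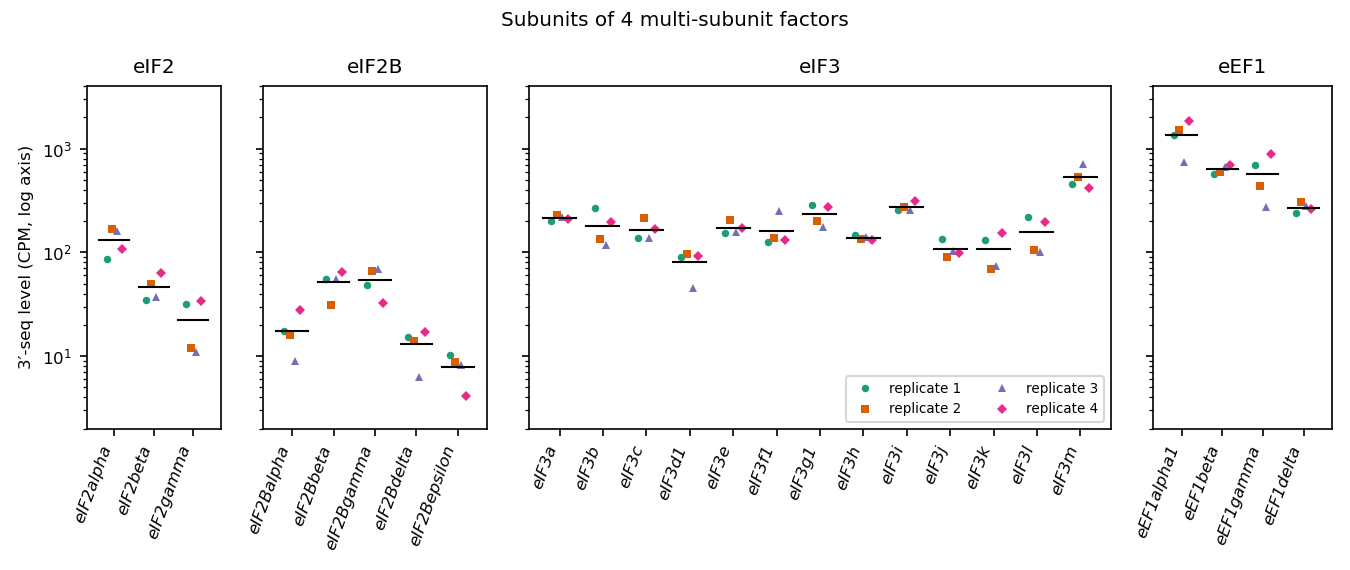
Level in CPM (log axis) of the subunits of eIF2, eIF2B, eIF3 and eEF1 in each replicate, with bars at the means. The eIF3 subunits lie mostly between 100 and 300 CPM with *eIF3m* above at 527 CPM, *eIF2gamma* lies below *eIF2alpha* in every replicate, and 3 of the eIF2B subunits have means below 20 CPM.

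Of the other start site factors, *eIF1A*, *eIF1* and *eIF2A* were above each eIF2B subunit by mean. *eIF2D* was below *eIF2Bgamma* (53.8 CPM) and *eIF2Bbeta* (51.9 CPM). *eIF1A*, which with *eIF1* keeps the scanning ribosome open until the start codon, had 291, 207, 234 and 257 CPM. *eIF1* had 182, 175, 140.2 and 212 CPM. *eIF2A* and *eIF2D*, studied in mammals and yeast as other routes for tRNA delivery and reinitiation, had means of 159.6 ± 33.3 and 49.8 ± 15.9 CPM (SD, n = 4).

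The eIF3 complex coats the small subunit and links it to eIF4G. Scaled by library total, it was the most even of the 4 complexes by its sum, with 2599, 2418, 2486 and 2559 CPM. Of its 13 expressed subunit genes, 11 lay within 2-fold of their median of 164 CPM. *eIF3a*, the largest scaffold subunit, had 198, 229.6, 218 and 209 CPM, and *eIF3h* had 148, 133, 141 and 133 CPM, the smallest relative spread of the complex (5.20% of its mean). *eIF3i*, a WD-repeat subunit, was the highest after *eIF3m*, at 276 ± 24.8 CPM (SD, n = 4).

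*eIF3m*, a PCI-domain subunit on chromosome 2R from 14163066 to 14164825, was the highest of eIF3 in all 4 replicates, with 455, 529, 706 and 419 CPM. *eIF3d1* was the lowest by mean, with 90.5, 96.2, 45.7 and 91.8 CPM. The ratio of *eIF3m* to *eIF3d1* was 5.03, 5.49 and 4.57 in replicates 1, 2 and 4 and 15.4 in replicate 3, where *eIF3m* was at its highest and *eIF3d1* at its lowest. Between means the ratio was 6.51, and 5.04 without replicate 3. In replicate 2 *eIF3k* was the lowest subunit instead, 7.59 times below *eIF3m*.

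Within eIF3 the direction of replicate 3 was not shared. *eIF3f1* had 125, 137, 252 and 132 CPM and was thus highest in replicate 3, in contrast to *eIF3d1*. *eIF3b*, *eIF3l*, *eIF3k* and *eIF3g1* were instead higher in replicates 1 and 4 than in replicates 2 and 3. For *eIF3b* the values were 266, 135, 117 and 197 CPM. For *eIF3l* they were 219, 105, 102 and 196 CPM, and for *eIF3k* they were 132, 69.7, 73.9 and 152 CPM. For *eIF3g1* they were 283, 200, 174 and 276 CPM. The other subunits *eIF3c*, *eIF3e* and *eIF3j* had means from 107 to 171 CPM.

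The factors of the last steps of initiation analysed here, *eIF5B* and *eIF6*, were low beside most of the 41 expressed genes. Against the median of 25.4 CPM over the 7754 genes that passed the minimum, *eIF5B* was higher (mean 33.2 CPM) and *eIF6* lower (13.4 CPM). *eIF5B*, the GTPase that joins the subunits, had 40.9, 29.8, 18.2 and 43.8 CPM. *eIF6*, which keeps the large subunit free until it is needed, had 18.3, 17.4, 4.68 and 13.3 CPM. Both were lowest in replicate 3, and *eIF6*, a gene of 1 exon on chromosome 2R from 23849246 to 23850301, overlaps *ytr* on the same strand at its end.

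The order of the 41 expressed genes by mean level was loose between neighbours. Of the 40 neighbouring pairs in that order, 3 kept it in every replicate, and these were *eEF1alpha1* over *eEF2*, *eIF3m* over *eIF4G1*, and *eIF5B* over *eIF2gamma*. All other neighbours, such as *eIF4E1* and *eIF4H1* or *eIF3k* and *eIF3j*, changed places in at least 1 replicate. Whether neighbours differ in level was not tested.

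How far the replicates spread was fitted with edgeR as the biological coefficient of variation, the relative spread beyond counting noise. Its median over the 41 genes was 0.335, against 0.376 over the 7754 genes fitted, and 32 of the 41 (78.0%) were below the trend at their level, against 68.9% of the genes fitted. The estimates are drawn toward that trend by the method. The largest were those of *eIF6* (0.450), *eIF2Bepsilon* (0.441), *eIF4B* (0.441), *eIF2gamma* (0.426) and *eEF5* (0.415). Of these 5, *eIF6*, *eIF4B*, *eIF2gamma* and *eEF5* were lowest in replicate 3 by CPM.

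The replicate in which a gene was highest or lowest was then counted beside the same counts over all genes. Replicate 3 was the lowest of the 4 for 20 of the 41 genes (48.8%), against 43.7% of the 7754 genes, and the highest for 5 (12.2%), against 18.3%. With TMM scaling these numbers were 17 and 15, against 33.0% and 30.1% of all genes, and with DESeq2 size factors 15 and 17, against 29.5% and 34.1%. The split thus depends on the scaling, for these genes as for all genes.

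Replicates 1 and 4 were both above replicates 2 and 3 for 18 of the 41 genes (43.9%), among them *eIF4A*, *eIF4E1*, *eIF4EHP*, *eIF4B* and *eIF2gamma*, against 37.9% of all genes. That number was 11 with TMM, against 23.8% of all genes, and 10 with DESeq2 size factors, against 21.5%. The highest replicate was more than 2 times the lowest for 20 of the 41 (48.8%), against 55.1%. A single replicate lay far from the other 3 for 2 of the 41 genes (4.88%), *eIF3f1* and *eIF3d1*, against 5.16%.

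Beside the low elongation factor sum of replicate 3, 3032 CPM against 5098, 5494 and 6811 CPM in replicates 1, 2 and 4, stood a low level of the glial markers *repo* and *alrm*, 16.3 CPM against 74.4 to 76.7 CPM. The 5 fat body genes summed to 13175 CPM in replicate 3 and between 6058 and 11753 CPM in the others. Most of these counts were on the yolk protein genes *Yp1*, *Yp2* and *Yp3*. The genes of this list were not alike: by CPM, *Yp1*, *Yp2* and *to* were highest in replicate 3. *Yp3* was lowest there, and *fit* was highest in replicate 4. The sum of the 5 neuronal markers was 2804 CPM in replicate 3, the highest of the 4, although 4 of the 5 genes were highest in replicate 1. Of the 5, only *nSyb* was highest in replicate 3. The part of these tissues in the levels of the elongation factors was not tested.

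Annotated features, which the choice of genes did not use, are given as counts without a test. At most 2 exons in every transcript were found for 5 of the 9 low genes and 8 of the 41 expressed genes, against 36.6% of the genes with an annotated transcript. A single annotated transcript was found for 7 of the 9 and 14 of the 41, against 49.97% of all. More than 1 annotated end was found for 1 of the 9, *eIF4H2*, and for 16 of the 41, against 26.1% of all. A gene of 1 exon occurred once among the 9, *eIF3g2*, and among the 41 for *eIF3f1* and *eIF6*, against 15.4% of the genes with an annotated transcript. The 50 genes lie on chromosomes 2L (5), 2R (12), 3L (11), 3R (15), 4 (1) and X (6), and the low genes on 3R (4), 3L (3), 2R (1) and X (1).

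Another gene overlaps the last 300 nt of an annotated transcript for 17 of the 41 expressed genes, in 14 of them on the opposite strand only. The median level was 102 CPM for the 17 and 178 CPM for the 24 with a free end. Of the low genes, *eIF3g2* shares its end with *Gfrl* on the opposite strand. The strand setting of the counting is not given in the sources used here, and neither is how reads that map to several places were handled, which would matter most for paralogs with similar ends. The last exon is under 150 nt in a transcript of *eEF5* (145 nt) and of *eIF4B* (110 nt), which matters because the mapping allowed no introns.

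A chosen list of other translation genes had a lower median level than the 119 CPM of the 50 genes. It also held mitochondrial factors, kinases and stress pathway genes, *eEFSec* and *vas*, so its median does not describe the cytosolic machinery alone. Of 30 listed, 27 were found and 25 passed the minimum of 10 counts, with a median of 42.7 CPM over the 27. *pAbp*, the poly(A)-binding protein that contacts eIF4G, had 1193, 682, 607 and 773 CPM. *Thor*, the *Drosophila* 4E-BP that blocks eIF4E from eIF4G, had 313, 357, 201 and 298 CPM, and was above *eIF4E1* in each replicate. *mxt*, a further eIF4E-binding protein, had 195 ± 11.3 CPM (SD, n = 4). The eIF4E-binding protein *4E-T*, by contrast, had 3.57, 1.08, 2.06 and 10.7 CPM, the lowest mean of the 25, and *Paip2*, which binds pAbp, had 49.5 ± 15.6 CPM (SD, n = 4).

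The release factors *eRF1* and *eRF3*, which end translation, were at 52.2 ± 9.76 and 22.1 ± 3.09 CPM, below the mean of each of the 7 elongation factor genes. *pix*, the counterpart of the ribosome recycling factor ABCE1, had 189.5 ± 40.6 CPM (SD, n = 4). The eIF2alpha kinases *PEK* and *Gcn2* had 16.2 ± 5.72 and 4.95 ± 3.68 CPM. *vas*, a germline helicase that binds eIF5B, fell below the minimum, with 6, 8, 0 and 25 counts.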

How the data were processed

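Polyadenylated RNA of adult wild-type heads was profiled with the QuantSeq REV kit in 4 replicates. By the paper's protocol, this RNA came from the cleared lysate of UV-irradiated head powder. The authors trimmed poly(A) with fastp, mapped reads to dm6 with STAR 2.6.1b without introns, and deposited raw counts per gene from featureCounts, not normalized and not pooled. Reads carry no molecular identifiers, so intervals cover counting error only. Gene names came from Ensembl release 115 (13513 of 13608 identifiers matched). CPM was counts divided by the library total. Spread was fitted with edgeR 4.0.16 in R 4.3.3 (TMM, intercept only, at least 10 counts in every replicate) and checked on simulated data. With 1 condition, no test between groups was made. Alternatives were TMM, DESeq2 1.42.0 size factors, other minimums and pseudocounts, and leaving out each replicate. Named genes were the paralog groups, the 5 highest and lowest levels, genes at 0, the 5 largest spreads and the complex subunits. Genes and lists were chosen with earlier results of these data known. Other steps used Python 3.11.15, pandas 2.3.3, scipy 1.17.1 and matplotlib 3.10.9.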

Additional observations from a re-analysis of the deposited data

Results flagged for a closer look

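Among 90 values examined over the 4 replicates, 12 had a replicate far from the other 3 by Dixon's ratio, and chance alone gives about 1 in 20. Genes with counts in a single replicate meet this by construction: *eIF4E4* (4.39 CPM), *eIF4E7* (1.34 CPM), *eIF3d2* (1.04 CPM) and *eIF4E3* (0.819 CPM) in replicate 1, and *eIF3f2* (0.360 CPM) in replicate 2. In replicate 3, *eIF3f1* was high (252 CPM against 125 to 137 CPM) and *eIF3d1* low (45.7 CPM against 90.5 to 96.2 CPM), and the ratio of *eIF3m* to *eIF3d1* was 15.4. The eIF2B sum was low in replicate 2, by a small amount (136 against 147 CPM). Of the marker lists, testis without *bol* (488 CPM) and midgut (1076 CPM) were high in replicate 1, and glia was low in replicate 3 (16.3 CPM).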

How the results depend on the processing

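No paired analysis was possible because only wild-type heads were profiled. The number of expressed genes stayed at 41 under each minimum and without each replicate. The share of counts, 1.06%, was 1.05% with TMM and with DESeq2 size factors, 1.18% when the 10 most abundant genes were left out of the total, and 0.989% to 1.15% without each replicate. No paralog ratio changed direction under a pseudocount of 0.05 or 1 CPM or without a replicate, and the ratio of *eIF4G2* to *eIF4G1* ranged from −1.38 to −1.06 (log2) over the latter. The median spread was 0.352 without scaling factors, 0.335 with the filterByExpr minimum and 0.301 to 0.365 without each replicate. The ratio of highest to lowest subunit without each replicate ranged from 6.57 to 7.91 for eIF2B, 5.04 to 7.27 for eIF3 and 4.38 to 5.87 for eEF1. Counts of genes by replicate depended on scaling, in alternatives chosen after seeing the data, as given above for replicate 3 and for replicates 1 and 4. With DESeq2 size factors, 1 gene in place of 2 had a replicate far from the others. The cause was not tested. At under 10 counts, a level could not be told from 0 in the other replicates.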
